A study of Mus musculus with 4 samples.

Results

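N-glycans are built on dolichol, a long isoprenoid lipid of the endoplasmic reticulum membrane, and are then moved as a finished block onto asparagine residues of proteins entering the secretory pathway. The genes described here make the lipid, add its sugars and carry out the transfer. All 32 listed genes were found among the 34866 genes of the deposited count table, and all 32 passed the filter on low counts that left 14067 genes for testing. They comprise 22 genes of dolichol and precursor synthesis (the ALG genes and their partners) and 10 genes of the oligosaccharyltransferase (OST), the enzyme complex that performs the transfer. They were picked by gene name, with earlier results of these data known, as were the other gene lists below.

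The libraries came from gastric corpus mucosa of mice of 2 genotypes, with 2 libraries of Muc6 -/- mice (knockout 1 and 2) and 2 of Muc6 +/+ mice (wild type 1 and 2). Muc6 encodes a gel-forming mucin of the gastric glands, and the knockout line was generated for the study, which asks how its loss relates to gastric carcinogenesis. The labels give no age, no strain and no description of the targeted allele. They do not say that each library is a different animal. The spread behind every p-value here is thus that between these libraries and may not be that between animals.

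In mammals the precursor is assembled by ALG enzymes, first on the cytosolic face of the membrane and then, after it has been flipped, on the lumenal face, where mannose and finally glucose are added from dolichol-linked donors. The OST exists in alternative forms built around the catalytic subunit STT3A or STT3B. The STT3A form sits at the protein translocation channel through the subunit OSTC and glycosylates chains as they emerge. The STT3B form carries an oxidoreductase subunit, TUSC3 or MAGT1, and acts on sites that the STT3A form has skipped. Secretory cells such as those of gastric glands depend on this machinery, since digestive enzymes, mucus proteins and the beta subunit of the proton pump are glycoproteins.

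Total counts were 20327623 and 21716996 in knockout and 27946313 and 20895651 in wild type. Muc6 had 0 and 10 counts in knockout, against 8542 and 6000 in wild type. Parietal cell markers were lower without overlap between genotypes in 10 of 10 genes, and summed to 1847 and 6256 CPM (counts scaled by library size) in knockout against 18720 and 17810 CPM in wild type. None of the 10 was at 0. Mucous neck and metaplasia markers were higher without overlap in 7 of 7 tested genes and summed to 16120 and 10732 CPM in knockout, against 2363 and 1707 CPM in wild type. Chief cell markers, of which 5 were tested, summed to 2554 and 81670 CPM in knockout against 64636 and 148054 CPM in wild type, so knockout 1 stood apart. Of 4 antral genes, Gast had 218 and 0 counts in knockout against 1 and 0 in wild type. Pdx1 was at 59.0 and 2.52 CPM in knockout against 0.282 and 0.052 CPM in wild type. Sst, at 20.7 and 133 CPM in knockout against 88.4 and 217 CPM in wild type, and Cym, at 0.358 and 7.68 CPM in knockout against 1.21 and 2.71 CPM in wild type, were instead lowest in knockout 1. The 4 tested squamous forestomach markers summed to 195 and 13.2 CPM in knockout against 0.887 and 0.26 CPM in wild type, so both knockout libraries held them and knockout 1 the more. Trp63, Sprr3 and Krtdap were at 0 in all 4 libraries. Krt5, also not tested, had 29 and 0 counts in knockout against 0 and 0 in wild type. Cycling cell markers were higher without overlap in 8 of 8 genes and summed to 530 and 468 CPM in knockout against 283 and 219.5 CPM in wild type. Surface pit markers were lower without overlap in 4 of 6 tested genes, and mitochondrial transcripts took 5.97% and 5.41% of counts in knockout against 9.39% and 8.73% in wild type. Smooth muscle markers separated the libraries within each genotype, at 430 and 2082 CPM in knockout and 323 and 2005 CPM in wild type. The 4 Y-linked genes measured summed to 1.43 and 2.43 CPM in knockout against 136 and 121 CPM in wild type, so genotype and Y-linked expression cannot be told apart for any gene below. The part of these differences in the results was not tested. In bulk tissue, fewer cells of a type and less RNA per cell also cannot be told apart.

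Of the 32 genes, 15 were higher in knockout without overlap between the genotypes (46.9%), against 26.3% of all genes tested, and 2 were lower without overlap (6.25%), against 23.8% of all genes tested. The other 15 overlapped, against 49.9% of all genes tested, with log2 fold changes between -0.11 and 0.24. Positive log2 fold changes were found for 24 genes (75%), against 49.9% of all genes tested. The median log2 fold change, knockout over wild type, was 0.16 for the 32 genes and -0.0017 for all genes tested. Without knockout 1 the median was 0.14, and in knockout 2 alone 22 genes were higher than both wild-type libraries, against 32.6% of all genes tested then, and 5 were lower, against 39.3%. Without knockout 2 the median was 0.068, and in knockout 1 alone 17 genes were higher, against 38.5% of all genes tested then, and 9 lower, against 42.8%. None of the 32 passed Benjamini-Hochberg adjustment at 0.05 in edgeR's quasi-likelihood test, where 0% of all genes tested passed. At an unadjusted p under 0.05 the counts were 5 of 32 (15.6%) against 15.9% of all genes tested, a share at the background. They were 4 higher genes (Ostc, Alg6, Alg8 and Dpagt1), against 9.22% of all genes tested, and 1 lower gene (Tusc3), against 6.68%. DESeq2 called 1 of the 32, Ostc, higher at its adjusted threshold, where 4.14% of all genes were called higher and 3.43% lower. Below, an error after ± is the SE of a log2 fold change over 2 libraries per genotype, and adjusted p-values are edgeR's unless another tool is named. Only Ostc, Tusc3, Alg6 and Alg8 differed by more than 1.5-fold, 4 of 32 genes, against 30% of all genes tested.

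**Figure D1:**
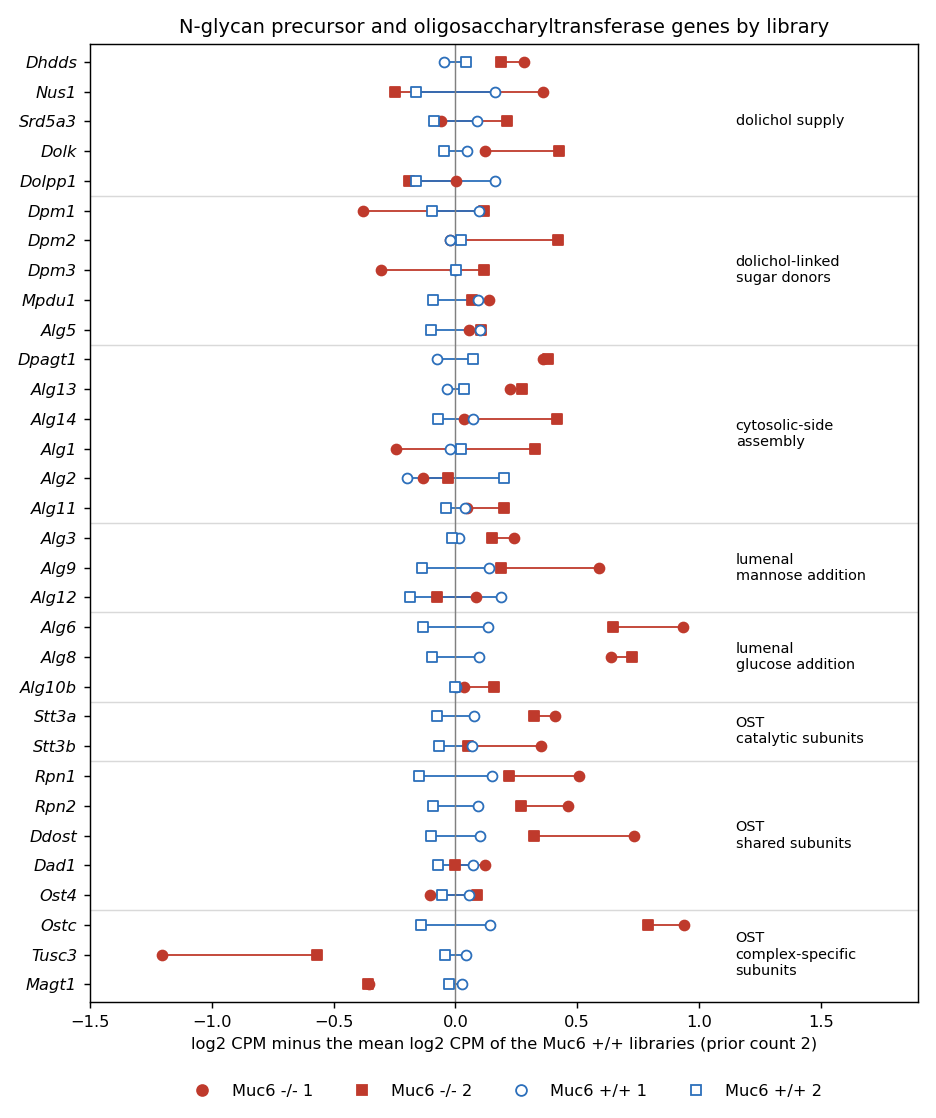
Each row is a gene, grouped by role from top to bottom, and the horizontal axis gives log2 CPM minus the mean of the Muc6 +/+ libraries. Red filled symbols are Muc6 -/- and blue open symbols Muc6 +/+ libraries (circle, library 1; square, library 2). Ostc, Alg6 and Alg8 lie to the right of both wild-type values and Tusc3 and Magt1 to the left. Of the 22 dolichol and ALG genes 12 overlap, against 49.9% of all genes tested.

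Upstream sequences of some members are shown first, and of these genes only Alg12 overlapped between genotypes. RefSeq upstream sequences (GRCm38.p6) matched 27 of the 32 genes. None was available for Ostc, Tusc3, Dpagt1, Alg2 and Alg11, so the genes with the 2 largest log2 fold changes are not among those shown. The following 250 bases lie upstream of the start annotated in RefSeq. They belong to the shared subunit gene Ddost, the catalytic subunit gene Stt3a and the STT3B-specific subunit gene Magt1, which did not overlap between genotypes. Others belong to the glucosyltransferase genes Alg6 and Alg8, which were higher together. The last belongs to Alg12, the only one of the 27 with an endoplasmic reticulum stress response element (ERSE). Each is written 5′ to 3′ on the strand of the gene, and capitals mark matches on either strand to CCAAT, to the ERSE (CCAAT and CCACG separated by 9 bases of any kind), to the unfolded protein response element TGACGTGG, or to the Golgi apparatus stress response element ACGTGGC, which shares the letters ACGTGG with TGACGTGG.
Ddost, chr4:138304488-138304737, plus strand: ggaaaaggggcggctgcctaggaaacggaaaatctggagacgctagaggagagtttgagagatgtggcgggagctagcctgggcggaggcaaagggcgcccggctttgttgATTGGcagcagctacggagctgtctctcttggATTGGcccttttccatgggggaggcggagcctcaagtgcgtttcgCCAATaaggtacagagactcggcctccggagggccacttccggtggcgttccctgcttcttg
Stt3a, chr9:36767623-36767872, minus strand: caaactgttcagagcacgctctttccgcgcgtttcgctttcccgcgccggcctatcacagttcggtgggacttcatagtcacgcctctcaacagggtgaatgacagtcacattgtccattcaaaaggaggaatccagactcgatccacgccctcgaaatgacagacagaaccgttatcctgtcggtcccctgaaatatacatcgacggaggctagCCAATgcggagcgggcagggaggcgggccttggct
Magt1, chrX:106011803-106012052, minus strand: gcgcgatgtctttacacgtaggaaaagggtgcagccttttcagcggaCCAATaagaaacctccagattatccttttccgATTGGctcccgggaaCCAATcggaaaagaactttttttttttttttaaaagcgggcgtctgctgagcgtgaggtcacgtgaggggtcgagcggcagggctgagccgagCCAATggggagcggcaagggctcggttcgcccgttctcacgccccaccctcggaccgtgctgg
Alg6, chr4:99715380-99715629, plus strand: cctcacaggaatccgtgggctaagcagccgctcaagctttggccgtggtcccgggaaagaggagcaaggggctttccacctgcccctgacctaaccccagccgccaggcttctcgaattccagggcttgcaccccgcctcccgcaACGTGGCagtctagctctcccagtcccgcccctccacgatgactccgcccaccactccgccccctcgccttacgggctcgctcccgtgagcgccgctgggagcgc
Alg8, chr7:97371367-97371616, plus strand: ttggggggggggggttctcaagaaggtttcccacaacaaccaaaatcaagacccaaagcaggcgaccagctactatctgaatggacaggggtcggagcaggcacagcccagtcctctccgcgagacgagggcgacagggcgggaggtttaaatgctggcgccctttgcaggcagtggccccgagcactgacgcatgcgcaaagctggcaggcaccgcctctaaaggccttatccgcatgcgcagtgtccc
Alg12, chr15:88819319-88819568, minus strand: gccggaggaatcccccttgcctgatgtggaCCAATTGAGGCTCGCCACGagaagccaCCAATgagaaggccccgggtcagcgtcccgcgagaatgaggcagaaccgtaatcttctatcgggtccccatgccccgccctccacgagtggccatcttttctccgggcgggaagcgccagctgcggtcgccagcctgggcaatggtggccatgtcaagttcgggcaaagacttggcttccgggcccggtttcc

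The Golgi stress element was found upstream of Alg6 alone among the 27 genes (3.7%), with its first base at position -105 from the start, and in 2.33% of 27025 genes with a sequence. The ERSE was found upstream of Alg12 alone, from position -220, and in 0.13% of all genes. The unfolded protein response element was found in 0 of 27 and in 0.603% of all genes. CCAAT was present upstream of 14 of 27 genes (51.9%), against 37.5% of all genes. Among the sequences shown, Ddost, Stt3a, Magt1 and Alg12 hold CCAAT, and Alg6 and Alg8 do not. By the GENCODE gene positions given below, the sequences of Ddost, Stt3a, Magt1 and Alg8 run into the gene. The only CCAAT of Stt3a and the last of Magt1 then lie inside the gene. These matches describe letters only. Genes with CCAAT stood on both sides, since Ddost and Stt3a were higher and Magt1 lower in knockout.

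Ostc and Tusc3, which belong to different OST forms, had the 2 largest log2 fold changes of the 32 genes, in opposite directions. Ostc (ENSMUSG00000041084.8, chromosome 3 at 130695912 to 130709444, minus strand, mm10), which ties the STT3A form to the translocation channel, was at 100.1 and 90.3 CPM in knockout, against 57.5 and 47.3 CPM in wild type. The groups were apart by more than the spread within either. The log2 fold change was 0.86 ± 0.17, a 1.82-fold higher level. Its adjusted p was 0.212 in edgeR and 0.00484 in DESeq2, the lowest over all alternatives, which ran up to 0.738. By unadjusted p, 392 of all genes tested ranked ahead of it.

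Tusc3 (ENSMUSG00000039530.17, chromosome 8 at 39005845 to 39165114, plus strand), an oxidoreductase subunit of the STT3B form, was at 31.3 and 48.7 CPM in knockout, against 74.3 and 70.1 CPM in wild type. Both knockout values lay below both wild-type values, and knockout 1 was the lower of the pair. The log2 fold change was -0.85 ± 0.25, with an adjusted p of 0.265 in edgeR and 0.0633 in DESeq2. Without knockout 2 the log2 fold change was -1.26, a value that rests on 1 knockout library. Magt1 (ENSMUSG00000031232.16, chromosome X at 105968084 to 106011906, minus strand), the alternative oxidoreductase subunit, which also takes part in magnesium transport, was at 103.9 and 103.6 CPM in knockout, against 135 and 130.4 CPM in wild type. Knockout values were nearly equal and below both wild-type values, with a log2 fold change of -0.36 ± 0.14 (adjusted p = 0.342). Without knockout 1, Ostc was at 0.74, Tusc3 at -0.62 and Magt1 at -0.41 on the log2 scale, with the same directions. Over the 4 libraries, Tusc3 had the same order as the parietal marker sums and also as the Y-linked sums. Ostc had the same order as the mucous neck and metaplasia sums, the cycling cell sums and the squamous forestomach sums. The part of any of these in the result was not tested.

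**Figure D2:**
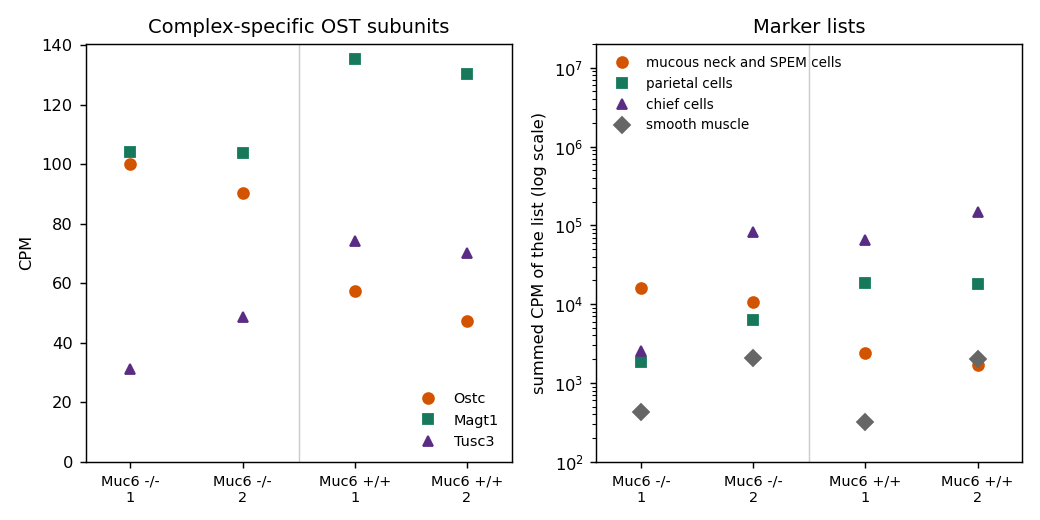
Left, CPM of the complex-specific subunit genes in each library; right, summed CPM of marker lists on a log axis, with Muc6 -/- libraries left of the grey line and Muc6 +/+ libraries right of it. Ostc is at 100.1 and 90.3 CPM in knockout and at 57.5 and 47.3 CPM in wild type, and Tusc3 and Magt1 run the other way.

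Ratios within a library do not depend on scaling. The ratio of Ostc counts to the summed counts of Tusc3 and Magt1, chosen after the values were seen, was 0.741 and 0.593 in knockout, against 0.274 and 0.236 in wild type. It was thus 2.6-fold higher in knockout on the mean log2 scale. Tusc3 to Magt1 stood at 0.301 and 0.47 in knockout, against 0.55 and 0.538 in wild type, a log2 difference of -0.53. Both knockout ratios were below the wild-type ratios, but the knockout libraries differed from each other by more than knockout 2 differed from wild type. The difference was -0.21 without knockout 1 and -0.85 without knockout 2. The exact two-sided permutation test gave p = 0.333 (n = 2 per group), the smallest value that this design allows.

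The catalytic subunits were closer to each other. Stt3a lies on chromosome 9 at 36729344 to 36767679, minus strand. It was at 175 and 165 CPM in knockout, against 139 and 125 CPM in wild type, with no overlap (0.36 ± 0.16, adjusted p = 0.376). Stt3b was at 204 and 166 CPM in knockout, against 168 and 153 CPM in wild type. Its groups overlapped, since knockout 2 lay between the wild-type values (0.21 ± 0.19), and without knockout 1 its log2 fold change was 0.0027. Without wild type 2 it was 0.13. The ratio of Stt3a to Stt3b counts was 0.856 and 0.996 in knockout, against 0.828 and 0.82 in wild type. The log2 difference of 0.16 had an exact two-sided permutation p of 0.333, again the smallest possible, and it was 0.055 without knockout 2 and 0.27 without knockout 1. Most of this difference came from knockout 2.

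Of the 5 shared subunit genes, 3 were higher without overlap, against 26.3% of all genes tested. They were Rpn1, Rpn2 and Ddost, which encode membrane subunits found in both forms. Ddost (chromosome 4 at 138304730 to 138312628, plus strand) was at 233 and 175 CPM in knockout, against 150.4 and 131 CPM in wild type (0.54 ± 0.22, adjusted p = 0.353). Rpn1 was at 345 and 283 CPM in knockout against 269 and 219 CPM in wild type (0.36 ± 0.22), and Rpn2 at 289.6 and 253 CPM in knockout against 224 and 197 CPM in wild type (0.37 ± 0.19). In all 3 genes knockout 1 was the highest library. Without it the log2 fold changes were 0.27 for Ddost, 0.17 for Rpn1 and 0.22 for Rpn2, and Rpn1 was at 0.21 without wild type 2.

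The small subunit genes did not separate the genotypes. Dad1, whose product stabilises the complex, was at 83.9 and 77.1 CPM in knockout against 81.1 and 73.3 CPM in wild type (0.06 ± 0.14). Ost4, which encodes a very short membrane protein, was at 35.6 and 40.6 CPM in knockout against 39.7 and 36.8 CPM in wild type (-0.0055 ± 0.14). Of its annotated exon bases, 53.2% overlap Agbl5 on the opposite strand, and its counts are uncertain because the sources used here do not say whether counting used strand.

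**Figure D3:**
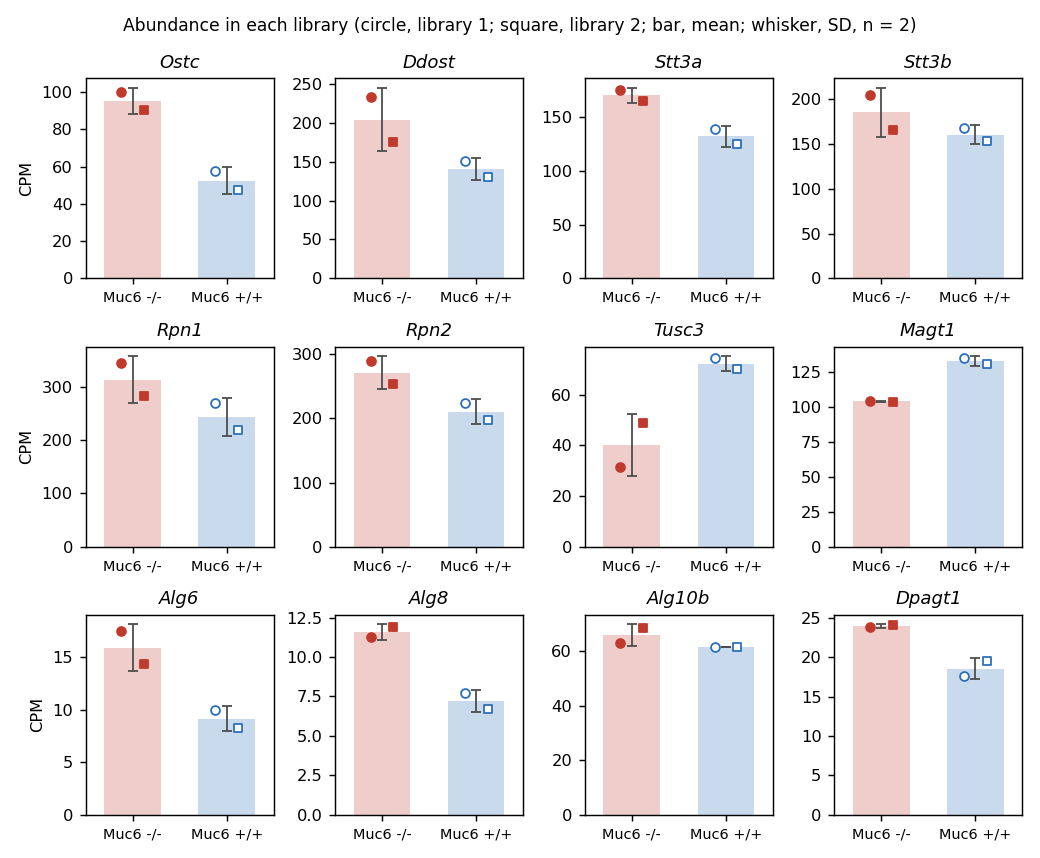
Each panel shows CPM of a gene in Muc6 -/- (red, left) and Muc6 +/+ (blue, right) libraries, with bars at the mean and whiskers of SD (n = 2 per group) and axes from 0. Ostc, Alg6 and Alg8 are apart and higher in knockout, Tusc3 and Magt1 are apart and lower, and Stt3b overlaps.

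Within each genotype most OST genes were higher in the same library. In knockout 8 of 10 OST genes were higher in knockout 1 than in knockout 2. In wild type 10 of 10 were higher in wild type 1 than in wild type 2. The share of all genes tested with this order was not counted. On log2 CPM minus the wild-type mean, all genes tested had medians of 0.041 and -0.041 in wild type 1 and 2. The OST medians there were 0.075 and -0.075. In knockout 1 and 2 the medians were 0.0060 and 0.033 for all genes tested, and 0.38 and 0.16 for OST genes. Tusc3 and Ost4 were the exceptions in knockout. The number 1 libraries had the lower smooth muscle sums. These were 430 CPM in knockout 1 against 2082 in knockout 2, and 323 CPM in wild type 1 against 2005 in wild type 2. Other marker sums had the same order. Fibroblast sums were 62.1 and 441 CPM in knockout and 44.3 and 470 CPM in wild type. Immune cell sums were 20.2 and 51.7 CPM in knockout and 29.7 and 86.4 CPM in wild type. Chief cell sums and the sums of the 3 tested antral genes were also lower in the number 1 libraries. The antral genes were split, since Sst and Cym had this order and Pdx1 had the opposite order. Gast, which was not tested, also had the opposite order, by 1 count against 0 in wild type. Mucous neck and metaplasia, surface pit, cycling cell and squamous sums were higher in them. Among the 22 dolichol and ALG genes, 8 were higher in knockout 1 than in knockout 2, and 15 in wild type 1 than in wild type 2. Whether tissue makeup had a part in this was not tested.

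Levels of different genes can be compared only per length. On CPM per kilobase of the principal annotated transcript, Rpn2 averaged 98.5 in knockout and 76.3 in wild type, Ddost 96.3 in knockout and 66.3 in wild type, and Rpn1 86.5 in knockout and 67.2 in wild type. These were the 3 highest of the 32 genes in wild type, while in knockout Ostc, at 89.2, stood above Rpn1. The scarcest of the 32 was Alg13, at 2.66 in knockout against 2.23 in wild type. On this scale Ostc was at 93.8 and 84.7 in knockout, where Tusc3 was at 20.4 and 31.7. In wild type Ostc was at 53.9 and 44.3 and Tusc3 at 48.4 and 45.7, with no separation between these genes. With the union of annotated exons as the length, Ostc lay below Rpn1 in knockout, where Rpn1 was at 76.5 and 62.7. Ostc lay above Tusc3 in knockout and overlapped it in wild type with this length too, at 36.4 and 32.8 for Ostc and 9.11 and 14.2 for Tusc3 in knockout, and at 20.9 and 17.2 for Ostc and 21.6 and 20.4 for Tusc3 in wild type.

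Among the lumenal steps, Alg6 and Alg8, which encode glucosyltransferases, had the 2 largest log2 fold changes. Alg6 (ENSMUSG00000073792.11, chromosome 4 at 99715664 to 99763460, plus strand), which adds the first glucose, was at 17.4 and 14.3 CPM in knockout, against 9.96 and 8.28 CPM in wild type. Its difference was 0.80 ± 0.20 on the log2 scale (adjusted p = 0.241). Alg8 (ENSMUSG00000035704.17, chromosome 7 at 97371606 to 97392185, plus strand), which adds the next, was at 11.2 and 11.9 CPM in knockout, against 7.7 and 6.71 CPM in wild type (0.68 ± 0.19, adjusted p = 0.251). Both genes had knockout values above both wild-type values, and without knockout 1 they were at 0.60 and 0.68 on the log2 scale.

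Alg10b, which adds the terminal glucose that the OST recognises, was at 63.0 and 68.6 CPM in knockout, against 61.6 and 61.4 CPM in wild type. Its groups did not overlap, but the log2 fold change of 0.10 was smaller than its SE of 0.13. Within a library, the count ratio of Alg6 to Alg10b was 0.277 and 0.208 in knockout against 0.162 and 0.135 in wild type, and that of Alg8 to Alg10b was 0.179 and 0.174 in knockout against 0.125 and 0.109 in wild type. These ratios were also chosen after the values were seen.

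Of the mannosyltransferase genes of the lumenal side, Alg9 was higher without overlap, at 42.8 and 32.4 CPM in knockout against 31.3 and 25.9 CPM in wild type (0.40 ± 0.20). Without knockout 1 it was at 0.14, and without wild type 2 at 0.26. It shares 12.9% of its annotated exon bases with 1110032A03Rik on the opposite strand. Alg3, which adds the first lumenal mannose, was at 11.4 and 10.7 CPM in knockout against 9.76 and 9.58 CPM in wild type (0.20 ± 0.17), and was at 0.10 without knockout 1. It shares 8.46% of its exon bases with Eef1akmt4 on the opposite strand. Alg12, which adds a branch mannose and holds the ERSE shown above, overlapped, with a log2 fold change of -0.0054 ± 0.21.

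The cytosolic steps begin with Dpagt1, which transfers GlcNAc phosphate to dolichol phosphate. Dpagt1 (chromosome 9 at 44326019 to 44333900, plus strand) was at 23.8 and 24.1 CPM in knockout, against 17.6 and 19.5 CPM in wild type (0.37 ± 0.13, adjusted p = 0.310). The knockout values nearly coincided and lay above both wild-type values. Alg13 and Alg14 encode the partner subunits of the enzyme that adds the next GlcNAc. Alg13, on chromosome X, was at 4.7 and 4.87 CPM in knockout against 3.91 and 4.11 CPM in wild type, a log2 fold change of 0.25 below its SE of 0.30. It is 90.8% identical over 863 bases to Glt28d2, so its counts are uncertain.

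Alg14 was at 13.6 and 17.7 CPM in knockout against 13.9 and 12.6 CPM in wild type and overlapped. Of the cytosolic mannosyltransferase genes, Alg11 was higher without overlap, at 25.8 and 28.7 CPM in knockout against 25.7 and 24.3 CPM in wild type, with a log2 fold change of 0.13 below its SE. Alg1, which shares 17.6% of its exon bases with Eef2kmt on the opposite strand, and Alg2 overlapped, at 0.07 ± 0.24 and -0.09 ± 0.19.

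None of the 5 genes of the dolichol-linked donors separated the genotypes. Dpm1, Dpm2 and Dpm3 encode the catalytic and the stabilising subunits of dolichol phosphate mannose synthase, Alg5 the enzyme that makes dolichol phosphate glucose, and Mpdu1 a protein required for the use of both donors. All 5 overlapped between genotypes, against 49.9% of all genes tested. Their log2 fold changes ran from -0.11 for Dpm1 to 0.22 for Dpm2. Dpm2 was at 18.7 and 25.4 CPM in knockout against 18.7 and 19.3 CPM in wild type, so knockout 2 alone was apart. Dpm1 shares 895 exon bases with the gene model Gm20716 on the same strand, which held 1936 and 1808 estimated counts in knockout and 1955 and 1547 in wild type, more than Dpm1 itself. How reads were divided between them is not known, which leaves the Dpm1 value uncertain.

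In dolichol supply, 2 of 5 genes were higher without overlap and 0 lower, against 26.3% and 23.8% of all genes tested. Dhdds and Nus1 encode the subunits of the prenyltransferase that makes the dolichol chain. Dhdds was at 34.1 and 31.9 CPM in knockout against 27.2 and 28.9 CPM in wild type, without overlap (0.23 ± 0.12), and its log2 fold change was 0.14 without knockout 1. Nus1 was at 145.8 and 95.5 CPM in knockout against 127 and 101.4 CPM in wild type and was spread more widely within each genotype than between them.

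Dolk, the kinase that makes dolichol phosphate, was at 13 and 16.1 CPM in knockout against 12.4 and 11.6 CPM in wild type, without overlap (0.28 ± 0.18), and its log2 fold change was 0.068 without knockout 2. Srd5a3, which is needed to convert polyprenol to dolichol, and Dolpp1, a phosphatase that recycles the carrier, overlapped at 0.08 ± 0.17 and -0.10 ± 0.17. Over the 32 genes, 15 had a log2 fold change smaller than its SE, and SEs ran from 0.12 to 0.30. The lowest count of any of the 32 in any library was 79 and the highest 7707.

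**Figure D4:**
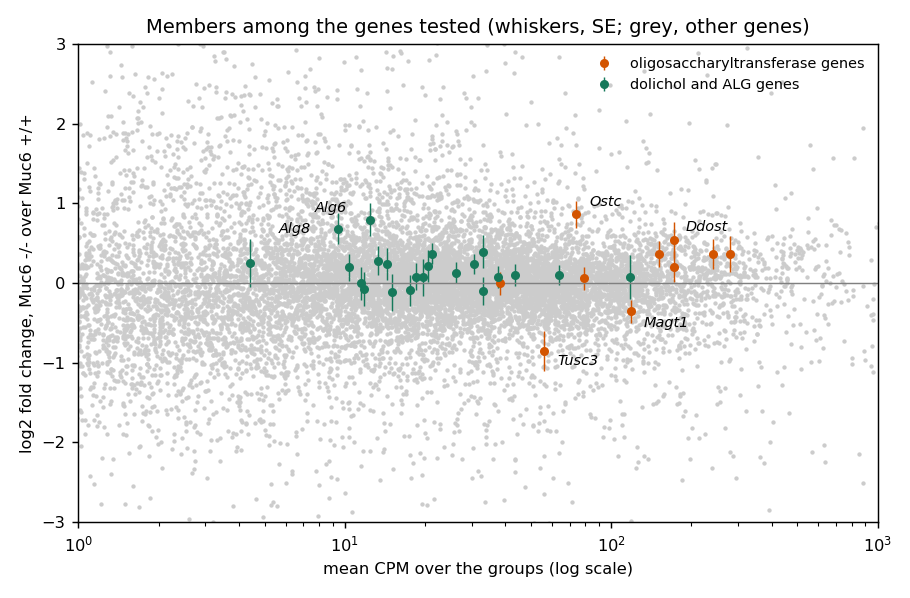
Log2 fold change of Muc6 -/- over Muc6 +/+ against mean CPM (log axis) for genes of 1 to 1000 CPM, with other genes in grey, OST genes in orange and dolichol and ALG genes in green, and whiskers of SE (n = 2 per group). Ostc and Tusc3 lie at 0.86 and -0.85, and most of the 32 genes lie near 0.

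Steps next to the precursor pathway were followed in a list of 58 genes, of which 57 were tested and 0 passed the adjusted threshold of edgeR's quasi-likelihood test. At an unadjusted p under 0.05, 9 of the 57 passed (15.8%), against 15.9% of all genes tested. DESeq2 called 6 of the 57, 4 higher (Mogs, Prkcsh, Gfpt1 and Pdia3) and 2 lower (Ugp2 and Edem1), against 4.14% and 3.43% of all genes tested. Without overlap 30 were higher and 10 lower, against 26.3% and 23.8% of all genes tested. Of further genes tied to the OST, 3 are described. Krtcap2, which like Ostc belongs to the STT3A form, was at 33.2 and 41.6 CPM in knockout against 31.8 and 31.3 CPM in wild type (0.24 ± 0.16). Mlec, a lectin associated with the complex, was at 497 and 489 CPM in knockout against 372 and 325 CPM in wild type (0.50 ± 0.20). Tmem258, a shared subunit, was at 26.7 and 29.3 CPM in knockout against 29.7 and 25.9 CPM in wild type and overlapped.

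Among 15 genes of glucose trimming and the lectin cycle, 9 were higher (60%) and 4 lower (26.7%) without overlap, against 26.3% and 23.8% of all genes tested. Mogs, the glucosidase that removes the terminal glucose, was at 66.9 and 71.1 CPM in knockout against 47.5 and 44.0 CPM in wild type (0.59 ± 0.13, adjusted p = 0.228). Prkcsh, the beta subunit of the glucosidase that removes the others, was at 114.8 and 102.1 CPM in knockout against 70.6 and 67.6 CPM in wild type (0.65 ± 0.15, adjusted p = 0.229). In both genes the knockout values lay clear of the wild-type values. Pdia3, a disulfide isomerase of the lectin cycle, was at 914 and 782 CPM in knockout against 509.6 and 467 CPM in wild type. Edem1, which takes part in disposal of misfolded glycoproteins, was at 78.5 and 89.4 CPM in knockout against 128 and 122 CPM in wild type.

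Of 10 genes that supply sugar donors for the precursor, 4 were higher (40%) and 2 lower (20%) without overlap, against 26.3% and 23.8% of all genes tested. Gfpt1, which starts the hexosamine route to UDP-GlcNAc, was at 526 and 558 CPM in knockout against 315 and 257 CPM in wild type (0.92 ± 0.21, adjusted p = 0.229). Ugp2, which makes UDP-glucose, was at 150.6 and 175 CPM in knockout against 271 and 223 CPM in wild type (-0.60 ± 0.20, adjusted p = 0.293). Of 4 isoprenoid genes upstream of dolichol, Idi1 was at 214 and 142 CPM in knockout against 121 and 109.8 CPM in wild type, and Ggps1 at 20.7 and 23.9 CPM in knockout against 27.5 and 27.2 CPM in wild type.

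The translocation channel and its partners, to which the STT3A form binds, had 7 of 14 genes higher (50%) and 2 lower (14.3%) without overlap, against 26.3% and 23.8% of all genes tested. The median log2 fold change was 0.16. Ssr2, a subunit of the translocon-associated protein complex, was at 125.6 and 116 CPM in knockout against 98.7 and 83 CPM in wild type (0.41 ± 0.17). Sec61a1, the channel itself, was at 237 and 219.8 CPM in knockout against 185 and 177 CPM in wild type (0.34 ± 0.17). The differences of these genes were smaller than that of Ostc in log2 fold change, a comparison that was not tested.

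**Figure D5:**
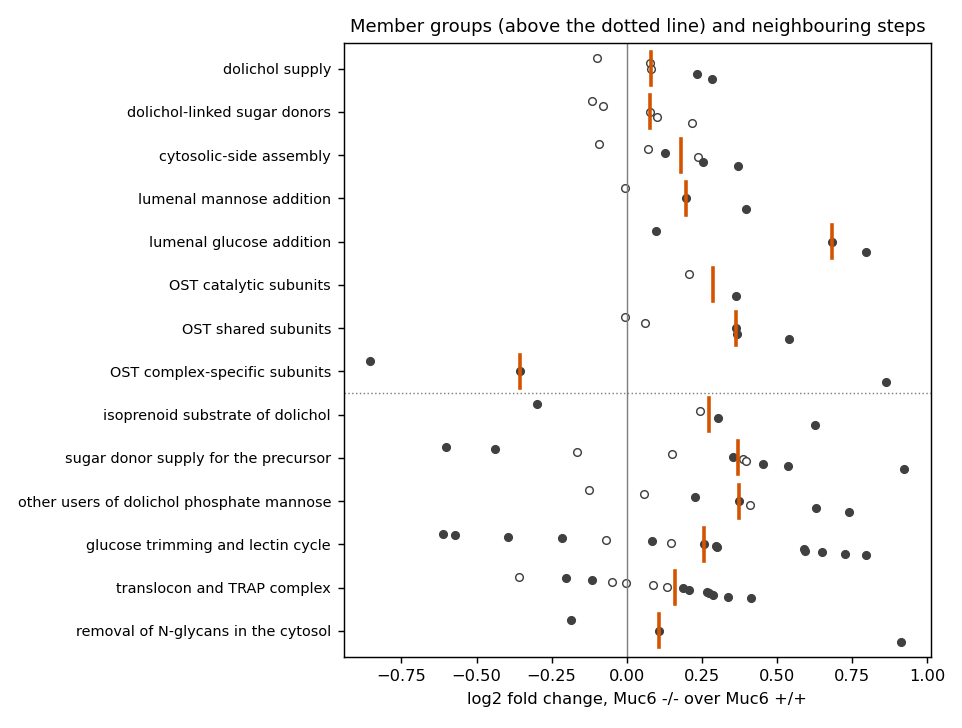
Each point is the log2 fold change of a gene, Muc6 -/- over Muc6 +/+, filled where the groups did not overlap, and orange bars are medians. Member groups are above the dotted line and 6 lists of neighbouring steps below it; Ostc at 0.86 and Tusc3 at -0.85 lie at opposite ends of the same row.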

How the data were processed

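RNA was measured in 4 libraries of mouse gastric corpus mucosa. Per the labels' protocols, libraries were made with a stranded kit for polyadenylated mRNA, and per the submitters' processing notes the build was mm10. The aligner, counter and strand setting were not given in the sources used here. The authors deposited estimated counts (expected counts) for each gene, without normalization as far as the values show, and 35.0% of nonzero values were not whole. They were rounded. Symbols, positions and lengths come from GENCODE M21, which matched 34652 of 34866 rows by identifier without version.

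Knockout was compared with wild type by edgeR 4.0.16 in R 4.3.3 (robust quasi-likelihood fit after TMM scaling and the filterByExpr filter, minimum 10 counts) over 14067 genes, with Benjamini-Hochberg adjustment at 0.05. The SE is the size of the log2 fold change divided by the square root of F. CPM uses TMM-scaled library sizes. DESeq2 1.42.0 was an alternative. Total counts per library set the precision, and the spread between libraries exceeds it: the chi-square of counts within a genotype was 272 per degree of freedom in knockout and 139 in wild type, so no library repeats another. The members and the lists were chosen with earlier results of these data known, and all 32 members were named, with the 2 genes of smallest p without overlap from each neighbouring list. Tmem258, Pdia3 and Edem1 were named after their values were seen. Near-identical genes were sought with blastn at 90% identity over at least 200 bases.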

Additional observations from a re-analysis of the deposited data

How the results depend on the processing

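Of 384 gene values over 12 alternatives, 357 kept their direction and their side of the adjusted threshold. Ostc ranged from 0.72 to 1.01 over all alternatives, Tusc3 from -1.26 to -0.62, Alg6 from 0.60 to 0.94 and Alg8 from 0.58 to 0.79 on the log2 scale, and 17 of 32 genes never changed sign. Against 0 calls over all genes and 0 among members, DESeq2 called 1044 genes and 1 member, and leaving out the filter on low counts gave 9 genes. Why the tools differ was not tested. Leaving out each library gave 0 to 851 genes (851 without knockout 2, 9 without knockout 1), 0 to 1 member (Tusc3, without knockout 2), a member median of 0.068 to 0.20 and 3 to 9 members lower without overlap, against 0.16 and 2. A group of 1 library is then assumed to vary like the others, and fewer libraries make non-overlap more frequent by construction. Alg12 turned positive with upper-quartile factors (0.0034), with library sizes lacking the 20 most abundant genes and no TMM factors (0.050) and with the replicate block (0.0042), as did Ost4 with the first 2 of these (0.0043 and 0.055). Leaving out libraries turned the sign of Nus1 (-0.30 to 0.30), Srd5a3 (-0.11 to 0.18), Dolpp1 (-0.26 to 0.076), Dpm1 (-0.44 to 0.068), Dpm2 (-0.076 to 0.37), Dpm3 (-0.36 to 0.071), Alg5 (-0.028 to 0.19), Alg14 (-0.020 to 0.37), Alg1 (-0.30 to 0.28), Alg2 (-0.27 to 0.11), Alg11 (-0.0043 to 0.17), Alg12 (-0.19 to 0.20), Alg10b (-0.019 to 0.11), Dad1 (-0.050 to 0.14) and Ost4 (-0.16 to 0.056). The cause was not tested. Libraries share only a number across genotypes, and deviations of equal numbers correlated at 0.517. With the replicate block 0 genes and 0 members passed, 3349 genes had an unadjusted p under 0.05 against 2236 without it, and the member median was 0.16. The design of 2 against 2 limits single ratios to an exact p of 0.333.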

Other observations

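Further users of dolichol phosphate mannose, outside N-glycosylation, were measured in the same fit. Of 7 tested, 4 were higher without overlap (57.1%) and 0 lower, against 26.3% and 23.8% of all genes tested, with a median log2 fold change of 0.37, against -0.0017 for all genes tested, and 0 passed the adjusted threshold in edgeR. At an unadjusted p under 0.05, 1 passed, Pomt1, an O-mannosyltransferase gene, which was at 14.0 and 14.6 CPM in knockout against 8.18 and 10.3 CPM in wild type (log2 difference 0.63 ± 0.19, SE over 2 libraries per genotype). Pigv, a mannosyltransferase of glycolipid anchor synthesis, was at 14.8 and 16.8 CPM in knockout against 12.0 and 12.4 CPM in wild type.

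Of 3 genes for removal of N-glycans in the cytosol, Engase, an endoglycosidase, was at 19.1 and 20.5 CPM in knockout against 9.15 and 11.9 CPM in wild type (log2 difference 0.91 ± 0.19, adjusted p = 0.226 in edgeR). Man2c1, a cytosolic mannosidase that trims released glycans, was at 22.3 and 24.3 CPM in knockout against 26.9 and 26.1 CPM in wild type, a log2 difference of -0.19.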
